A study of Mus musculus with 4 samples.

Results

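The Tcstv genes (2-cell-stage variable group) are a family of small, closely related protein-coding genes that lie side by side on mouse chromosome 13. Here 10 of them were followed: AF067063, D13Ertd608e, Tcstv1, Gm21761, B020031M17Rik, Gm20767, Gm21818, AF067061, BC147527 and Tcstv3, given in their order along the chromosome. They were selected by gene symbol with earlier results of these data in view, and all 10 had a row in each table, out of 24190 gene symbols. They span 490 kb (chr13:119827961-120318178, GRCm38), 6 on the plus and 4 on the minus strand. Because the choice used the difference between sorted populations, that difference is described here and not tested.

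Messenger RNA was measured in 4 sorted populations of E14 (ES-E14TG2a), an established male mouse embryonic stem cell (ESC) line grown in serum-free medium with inhibitors of MEK and GSK3β. Both clonal lines carried a stably integrated Zscan4c promoter, which drove GFP alone in the GFP line and GFP fused to Zscan4c in the GFP-Zscan4c line, called the fusion line below. Sorting gave from each line a GFP-negative (GFP-) fraction, labelled pluripotent, and a GFP-positive (GFP+) fraction, labelled 2C-like, with 1 library for each of the 4 populations. Where 4 values follow each other they stand in the order GFP line GFP- and GFP+, then fusion line GFP- and GFP+. Values are TPM, the share of transcripts after correction for transcript length, and no population has a replicate, so no p-value is given. The reporter marks cells by Zscan4c promoter activity, each line is 1 clone, and the fusion line carries an added Zscan4c coding sequence under that promoter.

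A mouse ESC culture holds a small, transient population of 2C-like cells that transcribe genes otherwise used at the 2-cell stage, when the embryo starts its own transcription. Tcstv genes belong to that programme together with the Zscan4 genes, the transcription factor gene Dux (Duxf3) and the MERVL retroelement. Tcstv1 and Tcstv3 are known for lengthening telomeres in ESCs when overexpressed, and the roles of the other members are less well described.

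Stem cell and 2C-like markers were checked against the labels. The 6 ESC markers, including Pou5f1 and Sox2, were listed above 0 in every library and summed to between 2642 and 3359 TPM in the 4 libraries. The 5 markers of 2C-like cells summed to 9.38, 599.95, 4.68 and 561 TPM. Most of that was Zscan4c, at 9.24, 497, 4.11 and 366 TPM. Its promoter drove the sorted reporter, so the sum is no independent check of the sort. Each of the other markers was also higher in both GFP+ fractions, such as Tmem92 at 64.8 and 136 TPM, listed at 0 in the GFP- ones. Markers of primitive endoderm (4 of 6 listed) summed to 0 as listed, 2.22, 0.716 and 3.07 TPM, with Foxa2 and Sox7 listed at 0 in both GFP+ libraries. Those of fibroblasts (4 of 5 listed) summed to 0 as listed, 12.0, 0.114 and 7.42 TPM, nearly all of it Thy1 in the GFP+ libraries, while Col1a1 and Col1a2 stayed at or below 0.114 TPM. Of trophectoderm markers 3 of 5 were listed, at 23.3 to 39.4 TPM, nearly all Tfap2c, while Elf5 was listed at 0 in 3 libraries. The primitive endoderm and fibroblast sums were higher in the GFP+ fractions, as the members were, and their part in the results was not tested. In the GFP- library of the GFP line 48.4% of symbols had a value of 0, and in the other libraries between 11.6% and 19.5% did, so such genes are called listed at 0 and their absence is not inferred.

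The coding sequences show how closely the members are related. All 10 coding sequences lie within 1 exon and are between 453 and 519 bases long. The first 60 coding bases from the GENCODE M21 transcripts follow, 5′ to 3′. They are shown because they let each copy be set against the others, and capitals mark bases that differ from the most frequent base of the 10 members at that position.
AF067063: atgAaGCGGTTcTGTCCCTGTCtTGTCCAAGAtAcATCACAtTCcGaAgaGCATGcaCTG
D13Ertd608e: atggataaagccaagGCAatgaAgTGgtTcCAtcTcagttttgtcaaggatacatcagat
Tcstv1: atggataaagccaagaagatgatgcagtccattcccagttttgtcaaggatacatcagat
Gm21761: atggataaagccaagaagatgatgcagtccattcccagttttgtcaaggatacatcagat
B020031M17Rik: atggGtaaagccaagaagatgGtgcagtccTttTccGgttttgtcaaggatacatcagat
Gm20767: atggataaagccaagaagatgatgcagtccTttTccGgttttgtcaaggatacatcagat
Gm21818: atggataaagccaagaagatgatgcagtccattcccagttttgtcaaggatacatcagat
AF067061: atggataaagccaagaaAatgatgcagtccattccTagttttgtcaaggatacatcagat
BC147527: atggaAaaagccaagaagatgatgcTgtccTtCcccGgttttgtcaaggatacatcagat
Tcstv3: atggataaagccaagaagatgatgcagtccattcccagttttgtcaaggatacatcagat

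Tcstv1, Gm21761, Gm21818 and Tcstv3 had the same letters over these 60 bases. AF067061 differed at 2 positions, Gm20767 at 3, B020031M17Rik and BC147527 at 5 each and D13Ertd608e at 10, while AF067063 differed at 45 in this ungapped comparison. Over whole coding sequences, aligned end to end, the 45 pairs of members were between 70.2% and 97.5% identical, with a median of 88.5%. The closest pair was Gm21761 and AF067061, with 13 differences, followed by Gm21761 and Gm20767 with 15. Tcstv1 was closest to Gm21818, at 96.3%, and not to Tcstv3. D13Ertd608e and AF067063 were the distant members, and each had a far closer copy outside the group: D13Ertd608e differed from Gm21762 by 1 of 453 bases, and AF067063 from Gm21731 by 1 of 489. Gm21762 and Gm21731 lie in the same interval and were singled out after their sequences were compared.

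**Figure D1:**
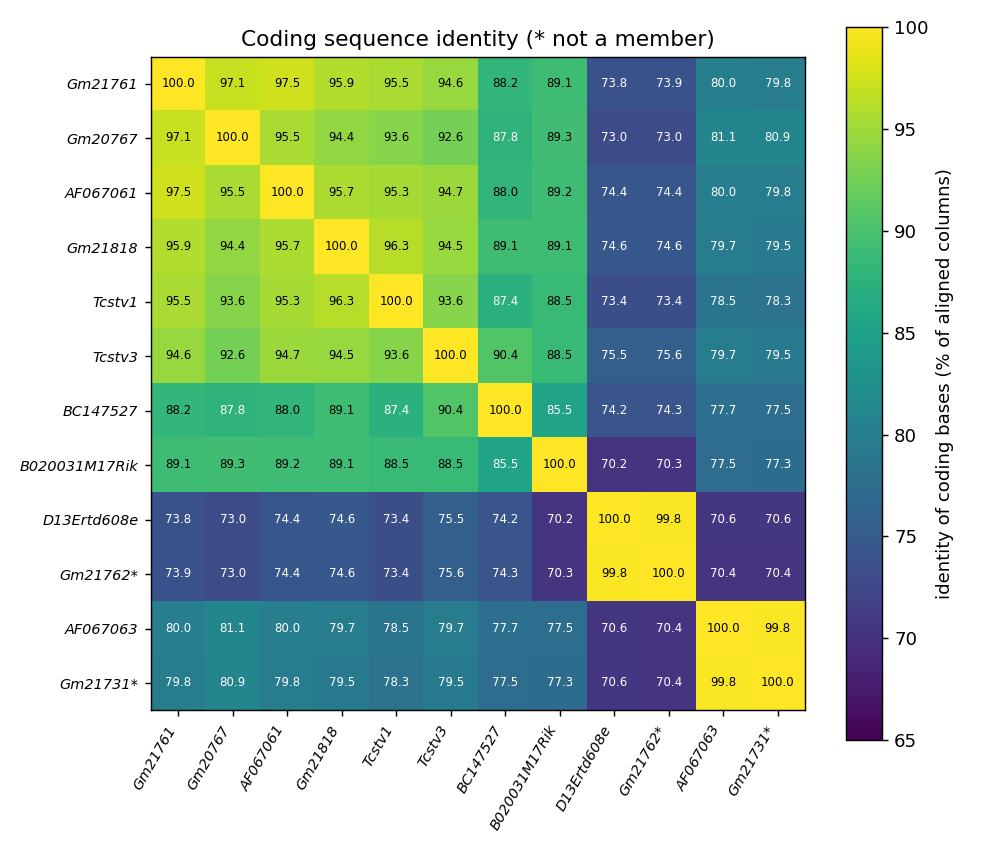
Identity of coding sequences between the 10 members and the further genes Gm21762 and Gm21731 (starred), as percent of aligned columns; colour and number give the same value. Gm21761, Gm20767, AF067061, Gm21818, Tcstv1 and Tcstv3 form a block of high identity, and D13Ertd608e and AF067063 each pair with a starred gene.

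This closeness bears on the measurement, because a short read from a shared stretch fits several genes. Of the 75-base words of Gm20767-201, the listed Gm20767 transcript, 55.3% also occurred in transcripts of another gene. The share was 42.3% for Gm21761-201 and 56.1% for Gm21761-202, the listed transcripts of Gm21761. It was 88.1% for D13Ertd608e and up to 70.2% for AF067063, and all of it was shared with Gm21762 and Gm21731 respectively. It was 27.8% for Gm21818 and 11.0% for Tcstv3. By contrast it was 7.88% for Tcstv1, at most 8.30% for AF067061 and 1.40% for BC147527, and B020031M17Rik had no shared word of that length. With 50-base words the shares were larger, at 73.1% for Gm20767 and 32.8% for Tcstv3, but at most 4.44% for B020031M17Rik. How the submitters' processing divided such reads is not given in the sources used here, so levels of Gm20767, Gm21761, Gm21818, D13Ertd608e and AF067063 are uncertain as levels of single genes. The cluster sum depends less on that division, except for reads shared with genes outside the group, such as Gm21762 and Gm21731. Words of 75 bases of Gm21761-202 occurred in 52 other genes, so in many non-members, though 52.2% of its words were shared with the member Gm20767. Those of BC147527 were shared with Gm8953, also not a member.

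RefSeq's promoter table (GRCm38.p6) had rows for 3 of the 10 members. The windows of AF067061 and Gm21761, the pair with the closest coding sequences, resembled each other: over the 250 bases before the RefSeq start they were 92.4% identical. In GENCODE the listed Gm21761 transcripts start elsewhere, Gm21761-201 at chr13:119912752 and Gm21761-202 at chr13:119929272. The Gm21761 window is thus not known to be the promoter of the RNA measured. The AF067061 window, chr13:120262845-120263094 on the plus strand, is shown with the first 170 bases of that of Gm21761, chr13:119913549-119913718 on the minus strand, where the remaining bases are left out because GENCODE places them in an exon. Capitals mark TGATTCAAT and TATATAA.
AF067061: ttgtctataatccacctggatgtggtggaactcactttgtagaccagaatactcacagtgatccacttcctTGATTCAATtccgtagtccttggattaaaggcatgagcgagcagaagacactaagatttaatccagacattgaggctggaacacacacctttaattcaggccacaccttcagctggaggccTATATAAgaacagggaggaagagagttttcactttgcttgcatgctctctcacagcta
Gm21761: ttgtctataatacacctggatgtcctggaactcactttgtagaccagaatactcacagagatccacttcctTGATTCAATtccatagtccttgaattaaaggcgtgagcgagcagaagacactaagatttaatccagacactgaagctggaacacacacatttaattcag

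The printed stretches differed at 10 of 170 positions. Both windows held TGATTCAAT, 179 to 171 bases before the start, and TATATAA, 58 to 52 bases before it. In Gm21761 this TATATAA lies in the unprinted bases that GENCODE places in an exon. Searched on both strands, TGATTCAAT was in 0.110% of the 32851 RefSeq windows of that length and TATATAA in 3.04%, but both runs were picked after these windows had been read. Of the other runs searched, TATAAA (12.4% of all windows), CCAAT (33.8%) and the Dux consensus motif (0.0304%) were in none of the 3 members' windows, and TGTGTGTG (3.55%) was in that of Gm21761. The window of BC147527 held none of the 6 runs, and its 250 bases were 51.1% identical to those of AF067061.

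The Tcstv cluster was low in both GFP- fractions and abundant in both GFP+ fractions. Summed over the 10 members it was at 16.0, 963, 15.8 and 2188 TPM. The GFP+ sum was 60.2 times the GFP- sum in the GFP line and 139 times in the fusion line, or 5.83 and 7.03 on the log2 scale. Under quantile normalization the first of these was 4.66. As shares, the 4 sums are 0.00238%, 0.141%, 0.00236% and 0.317% of all listed TPM. In bulk libraries such as these, fewer 2C-like cells and less Tcstv RNA per cell cannot be told apart.

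Tcstv1 and Tcstv3, the pair associated with telomeres, were not the most abundant members. Tcstv1 (chr13:119893388-119894785) was at 0.282, 18.6, 0.245 and 48.0 TPM. Tcstv3 (chr13:120316878-120318178) was at 0.884, 44.0, 0.953 and 141 TPM. Both were under 1 TPM in each GFP- library, and Tcstv3 was above Tcstv1 in all 4 libraries. In the GFP+ fraction of the GFP line that order depends on the listed models. TPM times length, per 1000000 over all listed transcripts of known length, leaves out the division by transcript length. In it Tcstv1 was at 20.7 and Tcstv3 at 19.5 in that library. Tcstv3 stayed above Tcstv1 in the other libraries, at 62.1 against 53.1 in the GFP+ fraction of the fusion line.

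A set of 3 uncharacterized genes carried most of the cluster's RNA. Gm21761 (chr13:119912095-119929272) was at 8.75, 471, 6.89 and 607.5 TPM. Gm20767 (chr13:120140246-120155335) was at 3.01, 219, 4.11 and 664 TPM. Gm21818 (chr13:120172433-120173888) was at 1.41, 103, 1.82 and 380 TPM. Each of the 3 was highest in the GFP+ fraction of the fusion line. Over the 3 genes no GFP- value was above 8.75 TPM and no GFP+ value was below 103 TPM.

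Among the middle members, B020031M17Rik (chr13:119949357-119950806), the one without shared 75-base words, was at 0.498, 42.6, 0.566 and 148 TPM. Its GFP+ level was 85.7 times the GFP- one in the GFP line and 262 times in the fusion line. AF067061 (chr13:120263114-120264517) was at 1.18, 46.5, 0.881 and 113 TPM, or 39.5 and 129 times higher in the GFP+ fraction. The 4 members with under 10% of 75-base words shared, Tcstv1, B020031M17Rik, AF067061 and BC147527, summed to 1.96, 114, 1.91 and 333 TPM. Their GFP+ sum was 58.4 and 174 times the GFP- one, against 60.2 and 139 times for all 10 members.

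The least abundant members were listed at 0 in some GFP- libraries. AF067063 (chr13:119827961-119830216) was listed at 0 in the GFP- fraction of the GFP line and had 4.01, 0.0725 and 21.1 TPM elsewhere. BC147527 (chr13:120300392-120308779) was listed at 0 in that same library and was at 6.49, 0.221 and 23.3 TPM in the others. D13Ertd608e (chr13:119836006-119846570) had 8.82 and 41.6 TPM in the GFP+ fractions and was listed at 0 in both GFP- fractions. For these 3 no fold against a 0 is given.

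**Figure D2:**
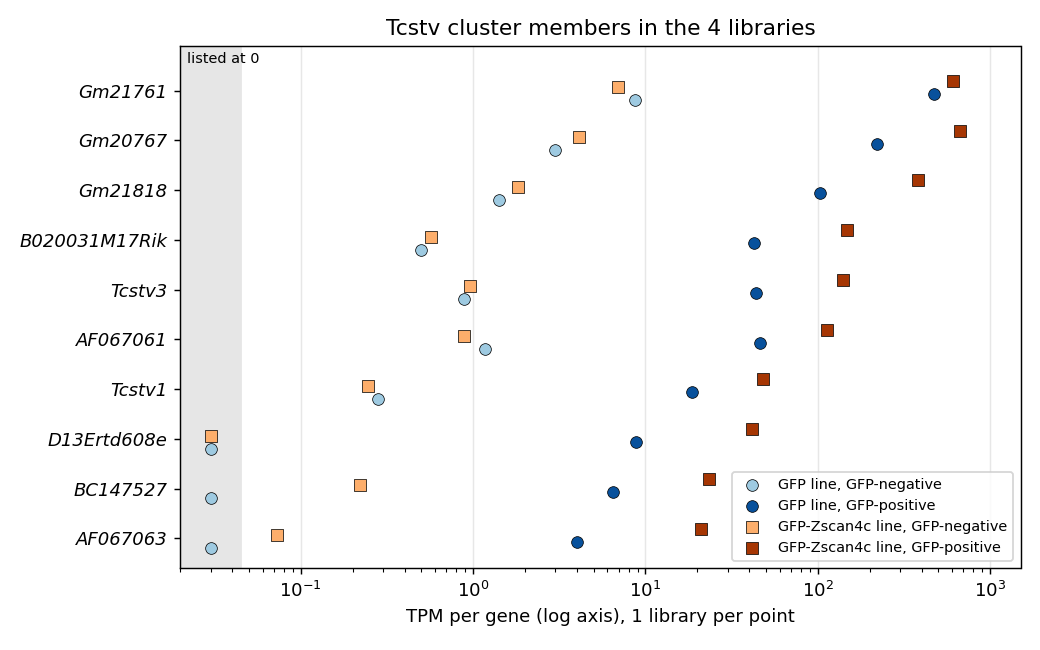
TPM of each member (rows) in the 4 libraries on a log axis, 1 point per library, with values listed at 0 drawn in the grey band. For every member both GFP+ points lie to the right of both GFP- points, and the GFP+ value of the fusion line is the highest, from 21.1 TPM for AF067063 to 664 TPM for Gm20767.

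For all 10 members both GFP+ values were above both GFP- values. On the log2(TPM + 1) scale, where the added 1 shrinks ratios of low genes, the members' GFP+ minus GFP- differences were 2.32 to 5.78 in the GFP line (median 4.51) and 4.32 to 7.08 in the fusion line (median 6.05). Among genes that reached 5 TPM in 1 library or both, 9 of 9 members in the GFP line and 10 of 10 in the fusion line were 2-fold or more higher, AF067063 being below that minimum in the GFP line. All but Gm21761 reached the minimum through their GFP+ value alone. Over all genes the same count was 33.2% of 11062 in the GFP line and 8.23% of 10981 in the fusion line. The first of these shares rests on the GFP- library in which 48.4% of symbols were at 0. Since the members were chosen on this contrast, nothing is read from their count. The median log2 difference of all those genes was 0.19 and 0.14.

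The order of levels within the cluster was much the same in both GFP+ populations, apart from the top. In the GFP line it was Gm21761, Gm20767, Gm21818, AF067061, Tcstv3, B020031M17Rik, Tcstv1, D13Ertd608e, BC147527 and AF067063, and in the fusion line Gm20767 stood above Gm21761, and B020031M17Rik and Tcstv3 above AF067061. These changes of order were not seen in TPM times length. In the GFP+ fraction of the fusion line Gm21761 was then at 719 and Gm20767 at 293, and AF067061 at 89.0, B020031M17Rik at 79.3 and Tcstv3 at 62.1. Other members changed order in it. Tcstv1 was above Tcstv3 in the GFP line (20.7 and 19.5) and below it in the fusion line (53.1 and 62.1). BC147527 was above AF067063 in the GFP line (2.84 and 2.15) and below it in the fusion line (10.2 and 11.4). AF067061, Tcstv3 and B020031M17Rik lay between 42.6 and 46.5 TPM in the GFP line, and with 1 library a population such neighbours cannot be ordered. Gm21761 held 54.7% and 48.8% of the cluster sum in the GFP- and GFP+ fractions of the GFP line. In the fusion line it held 43.7% in the GFP- fraction and 27.8% in the GFP+ fraction, where Gm20767 held 30.4%. In TPM times length Gm21761 held 47.4% in the GFP+ fraction of the GFP line and 47.6% in that of the fusion line, where Gm20767 held 19.4%.

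Transcript rows show that these levels rest on short gene models. The tables list 14 transcripts of the 10 members, while GENCODE M21 has 20. Of the 14, 6 hold only the coding bases and the stop codon. For Gm20767, Gm21818, BC147527 and Tcstv3 such a coding-only model was the single one listed, and a longer spliced model, such as Gm20767-202 with 3 exons and 1427 bases, was not analysed here. Tcstv1 had a single-exon transcript of 1280 bases listed and D13Ertd608e one with 2 exons. The other 4 members, AF067063, Gm21761, B020031M17Rik and AF067061, each had both a single-exon and a multi-exon transcript listed.

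For those 4 members the multi-exon transcripts were at 0 in both GFP- libraries, 4 of 4 in each, and above 0 in both GFP+ ones. AF067061-202, with 2 exons and 881 bases, was at 43.7 TPM in the GFP+ fraction of the GFP line and 103 TPM in that of the fusion line, or 94.0% and 90.5% of the gene's level. AF067061-201, a single exon of 1174 bases that runs across the intron, made up the whole level in the GFP- fraction, at 1.18 and 0.881 TPM. B020031M17Rik-202, also with 2 exons, was at 8.25 and 35.5 TPM in the GFP+ fraction, 19.3% and 24.0% of the gene. AF067063-202 was at 0.387 and 2.49 TPM there. At GFP- levels near 1 TPM a 0 for a second transcript says little.

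Gm21761 was the member whose transcripts changed places between the lines. Gm21761-201, the coding-only model of 516 bases, was at 8.75 and then 449 TPM in the GFP line, but at 6.89 and then 4.56 TPM in the fusion line. Gm21761-202, with 3 exons and 1374 bases, had 21.9 TPM in the GFP+ fraction of the GFP line and 603 TPM in that of the fusion line, and was listed at 0 in both GFP- fractions. The long transcript was thus 4.66% of the gene's level in the GFP line's GFP+ cells and 99.2% in those of the fusion line. No other listed transcript of a member was lower in the GFP+ fraction of either line.

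**Figure D3:**
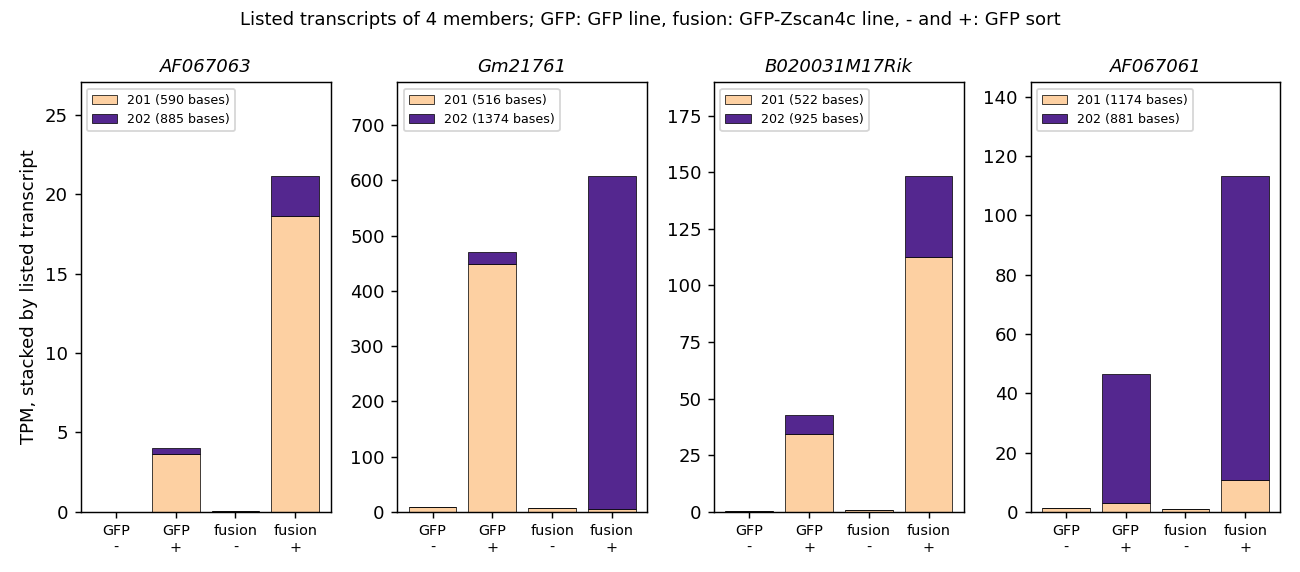
Stacked TPM of the listed transcripts of AF067063, Gm21761, B020031M17Rik and AF067061 in each library (GFP: GFP line; fusion: fusion line; - and +: sorted fraction). Gm21761 is nearly all Gm21761-201 in GFP+ cells of the GFP line and nearly all Gm21761-202 (603 TPM) in those of the fusion line, while the other 3 have the same main transcript in both GFP+ fractions.

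The fusion line was also set against the GFP line, a comparison with 1 library a side that is a description too, since the same GFP+ libraries entered the choice of members. In the GFP+ fraction the cluster sum was 2.27 times higher in the fusion line (1.18 on the log2 scale), and all 10 members were higher. With only the most abundant listed transcript of each member, by mean TPM, the log2 difference of the sum was 2.08. For Gm21761 that was Gm21761-202, at 21.9 TPM in the GFP line and 603 TPM in the fusion line. AF067063 was 5.28 times higher, D13Ertd608e 4.72 times, Gm21818 3.71 times, BC147527 3.60 times, B020031M17Rik 3.48 times, Tcstv3 3.20 times, Gm20767 3.03 times, Tcstv1 2.58 times and AF067061 2.44 times, with Gm21761 last at 1.29 times. On the log2(TPM + 1) scale 9 of 10 were 2-fold or more higher, against 5.71% of the 11126 genes that reached 5 TPM in either. The members' median log2 difference was 1.68, and that of all those genes 0.05. Zscan4c itself, onto which reads of the fusion transgene can fall, was at 9.24, 497, 4.11 and 366 TPM and so was not higher in the GFP+ fraction of the fusion line. The other Zscan4 genes on the 2C-like list were higher there, Zscan4f 2.17 times, Zscan4e 2.46 times, Zscan4d 3.36 times and Zscan4b 5.17 times. In that fraction Zscan4f, Zscan4e and Zscan4d were at 369, 359 and 362 TPM, close to Zscan4c. Shared words were searched for the members only, so whether transgene reads also fell on these genes was not tested. In the GFP- fraction the sums were nearly equal, at 0.984 times (log2 -0.02, but -1.23 under quantile normalization). Only Gm21761 reached 5 TPM there, at 8.75 and 6.89 TPM, and the other members were too low for their differences on the log2(TPM + 1) scale to be read.

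The low ratio of Gm21761 went with the choice of transcript model. TPM divides by transcript length, and most of its level sat on the 516-base model in one line and on the 1374-base model in the other. When TPM was multiplied back by transcript length and scaled to 1 total over all listed transcripts of known length, Gm21761 was 3.16 times higher in the GFP+ fraction of the fusion line. The 10 members then ranged from 2.45 to 5.31 times with a median of 3.38, and the cluster sum was 3.15 times higher. This quantity follows aligned bases only if TPM were computed from coverage over the model's full length.

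**Figure D4:**
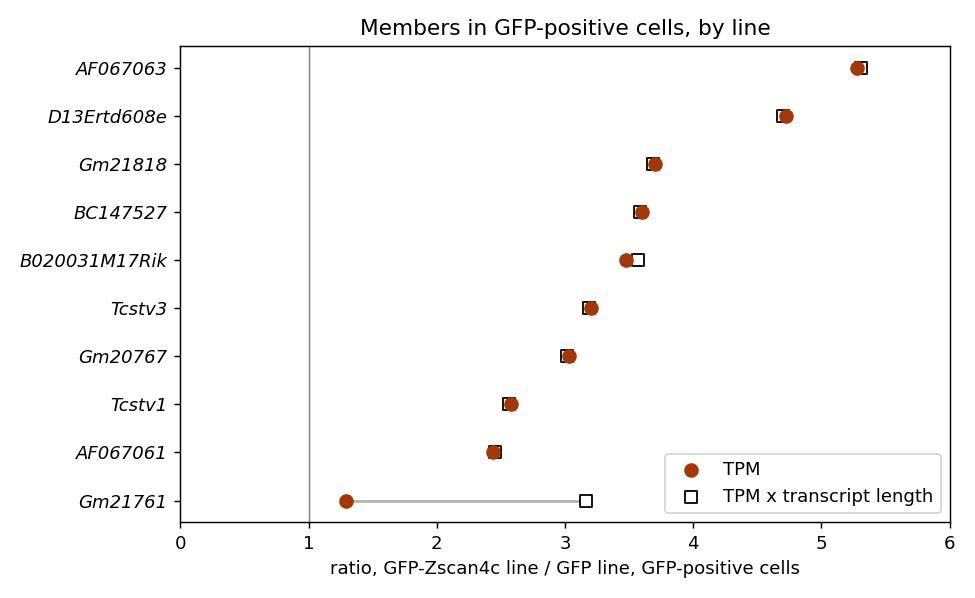
Ratio of GFP+ cells of the fusion line to those of the GFP line for each member, from TPM (filled circles) and from TPM times transcript length (open squares), with the line at 1 marking equal values. Only Gm21761 moves, from 1.29 to 3.16 times; the other 9 stay within the width of the symbols or close to it.

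Other genes of the 2C-like programme gave a scale for that difference. They include Zscan4 genes, for which a part of transgene reads was not examined. Of 36 genes on a list of 2C-like genes that holds no member, 34 had a row. In the GFP+ against the GFP- fraction, 26 of the 26 at 5 TPM or more were 2-fold or more higher in the GFP line. In the fusion line 25 of 26 were, against 33.2% and 8.23% of all genes in the 2 lines. Most of these genes reached 5 TPM through their GFP+ value alone. The list was chosen with earlier results of these data known, so nothing is read from these counts. Medians over all 34 were 4.63 and 5.39 on the log2(TPM + 1) scale. Between the lines in the GFP+ fraction, 16 of 28 were 2-fold or more higher in the fusion line and 2 were lower, against 5.71% higher and 4.05% lower over all genes, with a median log2 difference over the 34 of 1.04. The 2 lower ones were Pramef25, at 23.2 and 0.814 TPM, and Usp17ld, at 19.1 and 2.88 TPM. The most abundant of the list were Gm21312 (357 and 859 TPM in the GFP+ cells of the GFP line and the fusion line), Gm20765 (357 and 859 TPM) and Gm4340 (355 and 855 TPM), which had nearly the same values, each 2.41 times higher in the fusion line's GFP+ fraction. Duxf3, the Dux gene, was at 7.72 and 7.36 TPM in the same cells. Whether the members differ from this list was not tested.

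Genes between and around the members did not share their values as a block. Of 33 other genes annotated within 0.5 Mb of a member, 15 were listed, 9 of them inside the cluster. Gm20900, a processed pseudogene inside an intron of BC147527 on the opposite strand, was at 189.5, 212 and, in the fusion line, 168 and 182 TPM. Gm20784, 11438 bases from B020031M17Rik, was at 6.66, 8.14, 5.52 and 7.21 TPM. These levels were alike in all 4 libraries, in contrast to the members beside them. Both are processed pseudogenes, and how far their sequence is shared with genes elsewhere was not examined. Gm21181, a pseudogene within an intron of Gm21761 on its strand, was at 0 as listed, 3.71, 0.198 and 9.18 TPM, and Gm37619 at 0 as listed, 1.53, 0 as listed and 4.37 TPM.

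The copies of AF067063 and D13Ertd608e followed their partners. Gm21731 had 3.36 and 15.0 TPM in the GFP+ fractions and was listed at 0 in the GFP- ones, and Gm21762 was at 0 as listed, 9.50, 0.185 and 37.0 TPM. Given 1 coding difference in each pair, reads of either cannot be told apart over most of their length. Outside the cluster the nearest listed gene was Zfp131, a zinc finger gene 37072 bases away, at 0 as listed, 3.06, 2.78 and 9.61 TPM. Hmgcs1, a sterol synthesis gene beyond it, was at 92.3, 45.8, 48.4 and 56.5 TPM and was named after its values were seen. Among neighbours that reached 5 TPM, 4 of 8 in the GFP line and 6 of 11 in the fusion line were 2-fold or more apart on the log2(TPM + 1) scale, and these were higher in the GFP+ fraction, against 40.7% and 11.4% of all genes that reached it. With a pseudocount of 0.1 in place of 1 the count in the GFP line was 5, the added gene being Hmgcs1, which was lower in the GFP+ fraction. In the GFP line these were Gm21762 inside the cluster and Nnt, Paip1 and 4833420G17Rik outside it, of which Nnt and 4833420G17Rik were listed at 0 in the GFP- library. In the fusion line they were Gm21762, Gm21731 and Gm21181 inside and Zfp131, Paip1 and 4833420G17Rik outside. As the counting is not stated to use strand, reads of a pseudogene in an intron and of its host's unspliced RNA cannot be told apart.

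**Figure D5:**
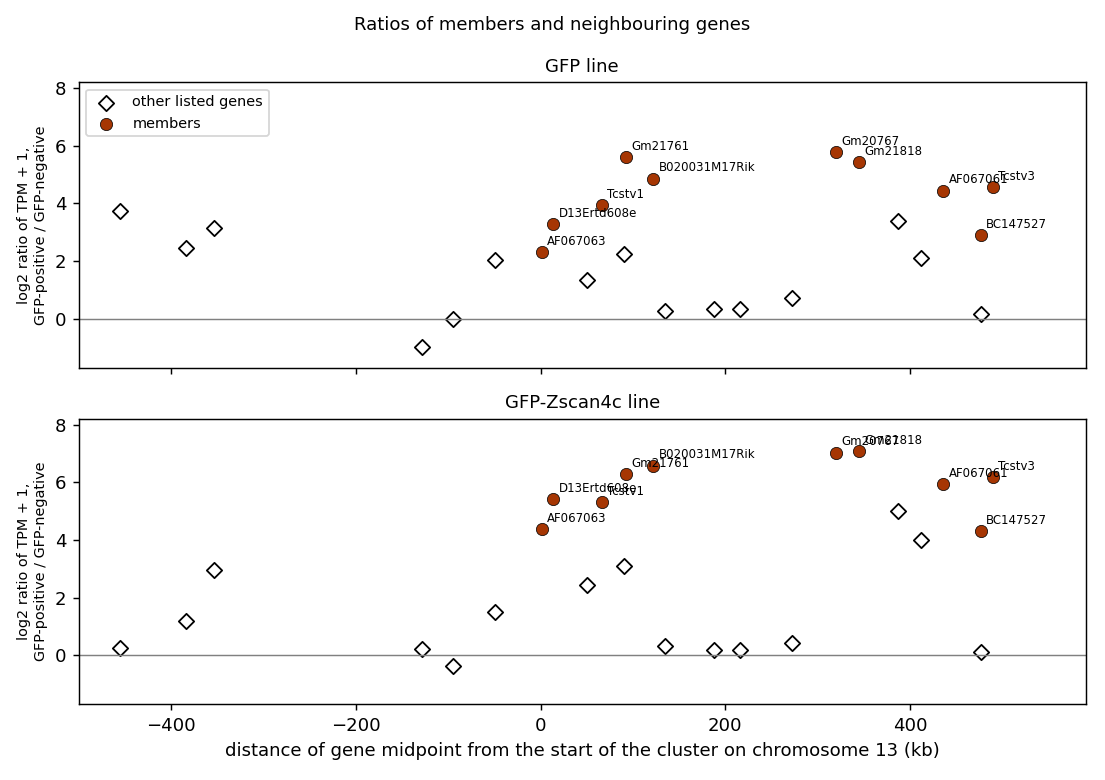
Difference in log2(TPM + 1) between GFP+ and GFP- cells in each line (upper panel: GFP line; lower panel: fusion line) against the distance of a gene's midpoint from the start of the cluster in kb, for members (filled circles) and other listed genes (diamonds). Members lie between 2.32 and 7.08, and several genes between them lie near 0. Among the latter, Gm21370 and Gm21188 did not exceed 0.268 TPM, where the added 1 keeps differences small.

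The genes whose values were most like those of the cluster sum lay on other chromosomes. Likeness was the root mean square difference of log2(TPM + 1) values, each centred on its mean over the 4 libraries, among the 11788 genes that reached 5 TPM somewhere. The nearest was Tmem92 on chromosome 11, a gene named for a transmembrane protein, at 0.08 log2 units. Tmem92 was at 64.8 and 136 TPM in the GFP+ fractions and listed at 0 in the GFP- ones, so its differences and its place depend on the added 1. It was already one of the 2C-like markers. It was followed on chromosome 10 by Gm21312 at 0.09, Gm20765 at 0.10, Gm21293 at 0.11 and Gm21304 at 0.13. Gm21312 and Gm20765 had nearly the same values in all 4 libraries. Whether their reads can be told apart was not examined, so they may not be separate measurements. The median over all candidates was 3.14. Members themselves lay between 0.20 for Gm20767 and 1.58 for AF067063, whose low level makes its log2 differences smaller. With 4 libraries this measure has few points, and all 5 genes were high in both GFP+ fractions and highest in that of the fusion line.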

How the data were processed

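Poly-A RNA of 4 sorted mouse ESC populations, 1 library each, was sequenced after random-hexamer priming, per the labels' protocols. The authors deposited TPM per transcript, made with CASAVA, HISAT2 2.1.0 and StringTie 1.3.5 on GRCm38 (mm10), per the submitters' processing notes. Not given in the sources used here were options, annotation release, strand use and the rule for listing transcripts. Listed TPM sum to 66.6% to 69.1% of a full scale, and read depth is unknown, so no counting interval is given.

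TPM were summed per symbol and over the 10 members with Python 3.11.15 and pandas 2.3.3. Ratios are log2(TPM + 1) differences or plain TPM ratios where neither value is 0. A count of genes that differed by 2-fold or more, without a test, covers genes that reached 5 TPM in a compared library. Positions, lengths and transcripts came from GENCODE M21 (GRCm38). Coding sequences were aligned globally with edlib 1.3.9.post1, and words of 50 and 75 bases were searched in all GENCODE transcripts on both strands.

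The members, the lists and the rule for named genes were chosen with earlier results of these data known. That rule took all 10 members, the 3 most abundant genes of the 2C-like list, up to 6 listed neighbours nearest a member and the 5 genes most like the cluster sum. Zscan4b, Zscan4d, Zscan4e, Zscan4f, Pramef25 and Usp17ld of that list were named outside the rule. So were the neighbours Nnt, Paip1 and 4833420G17Rik. Alternatives were other pseudocounts and minimums, median-ratio scaling, quantile normalization, single transcripts and, added after seeing the data, length weighting and other sets of summed genes.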

Additional observations from a re-analysis of the deposited data

Results flagged for a closer look

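Gm21761-201 was the one listed transcript of a member, among those reaching 5 TPM in some library, that moved in opposite directions in the lines. In the GFP line it went from 8.75 TPM in the GFP- fraction to 449 TPM in the GFP+ fraction. In the fusion line it went from 6.89 to 4.56 TPM. The difference between the lines was not tested, as each population is 1 library. Gm21761-202, which covers the same coding bases, was higher in the GFP+ fraction of both lines, at 21.9 TPM in the GFP line and 603 TPM in the fusion line. The part played by read assignment between these models was not tested.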

How the results depend on the processing

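No paired analysis was possible because the labels give no replicate numbers. The lines could serve as pairs for the GFP contrast, but no such fit was made, as the members were chosen on that contrast. No library could be left out within a group. Of 86 alternative values for sums, shares and counts, 78 moved by at most 1.5 times. No log2 ratio of a member or of the sum that was 2-fold or more changed sign (141 and 27 alternatives). The small GFP- line difference of the sum (-0.02) was 0.12 with median-ratio scaling and 0.26 without the most abundant member. It was 0.34 with only the most abundant transcript of each member. Log2 ratios of the cluster sum that moved were as follows. Under quantile normalization the GFP line's went from 5.83 to 4.66, and the line difference in the GFP- fraction from -0.02 to -1.23. With only the most abundant transcript of each member the fusion line's went from 7.03 to 7.89. With that choice the line difference in the GFP+ fraction went from 1.18 to 2.08. Both moves under quantile normalization use the library with 48.4% of symbols at 0. The number of chromosome 13 neighbours 2-fold or more apart went from 4 to 8 with no filter and to 2 at 10 TPM in the GFP line, and from 6 to 3 at 10 TPM in the fusion line. In TPM times length the most abundant member held 47.6% of the sum in the GFP+ fraction of the fusion line, against 30.4%. Of 193 alternative ratios of single members 60 moved, and 4 GFP- line differences changed sign under quantile normalization: Gm20767 (0.35 to -0.67), Gm21818 (0.23 to -0.96), B020031M17Rik (0.06 to -1.23) and Tcstv3 (0.05 to -1.20). Median-ratio scaling moved the median of all genes in the fusion line from 0.14 to -0.01. Unknown depth limits every value near 0.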
